A study of Mus musculus with 6 samples.

Results

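The DNAJ genes encode the J-domain co-chaperones, also called HSP40 proteins. Members were the gene symbols of the deposited count table that begin with Dnaja, Dnajb or Dnajc followed by a number and that had at least 10 counts summed over all libraries. Of 27482 gene symbols in the table, 44 match the name and 38 reach this minimum. The 6 RNA-seq libraries are labelled as mouse heart after I/R, which is ischemia/reperfusion, a block of the blood supply followed by its return. Of these, 3 came from mice given the AAV9-hFNDC4 vector, for FNDC4 overexpression, and 3 from mice given the AAV9-CTRL vector. AAV9, a serotype of adeno-associated virus, is widely used to carry genes into heart muscle. Every mouse in both groups had the I/R surgery, the hearts were collected 24 h later, and the series title names male mice. The sources used here give neither strain, age nor the promoter of the vectors. They do not say whether each library is a separate animal, and the p-values below rest on the spread between libraries, which may be technical.

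J-domain proteins bring unfolded clients to HSP70 chaperones and make HSP70 hydrolyse ATP, which locks the client in place. Nucleotide exchange factors then reset HSP70. Classes A and B carry the domain near the start of the protein, with class A also holding a zinc-binding region, while class C groups the rest, which act in particular places such as the endoplasmic reticulum (ER), mitochondria, ribosomes or vesicles. Several class A and B genes belong to the heat shock response driven by the transcription factor HSF1, and several ER members to the unfolded protein response.

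Total counts were 34419687 to 35149915 in the AAV9-hFNDC4 libraries and 32975817 to 36074046 in the AAV9-CTRL libraries. The defining markers of heart muscle did not match the tissue label: 4 of 15 cardiomyocyte markers reached 1 CPM (counts scaled to the size of the library) in at least 3 libraries, Pln and Nkx2-5 were at 0, and Myh6 averaged 0.245 CPM in AAV9-hFNDC4 and 0.310 CPM in AAV9-CTRL libraries. Summed marker levels were 57.5 to 60.5 CPM in the AAV9-hFNDC4 and 65.4 to 66.6 CPM in the AAV9-CTRL libraries for cardiomyocytes. Tnnt2 made up most of this sum, at a mean of 38.1 against 51.7 CPM in AAV9-CTRL. Gata4 (12.5 against 7.11), Ttn (4.62 against 3.90) and Myh7 (2.06 against 1.09) went the other way. The sums were 3342 to 3689 against 2148 to 2456 CPM for fibroblasts (5 of 9 markers at 1 CPM), and 531 to 594 against 297 to 359 CPM for mural cells (2 of 6). The fibroblast markers Dcn, Lum, Tcf21 and Postn averaged under 1 CPM in both groups. Nearly all of the mural sum came from Pdgfrb and Cspg4. Rgs5, Myh11, Acta2 and Tagln averaged under 1 CPM and were lower in AAV9-hFNDC4. For leukocytes the sums were 18.5 to 21.1 against 36.8 to 44.4 CPM (4 of 9), and for endothelium 2.08 to 3.55 against 3.41 to 5.59 CPM (2 of 8, with Emcn at 0). Cd68 made up most of the leukocyte sum, at 11.7 against 27.9 CPM. Lyz2 differed little (7.04 against 7.62), Ptprc averaged 0.091 CPM in both groups, and the remaining leukocyte markers were lower. The endothelial sums overlapped. Pecam1 (1.21 against 2.24), Kdr, Cdh5, Tie1 and Egfl7 were lower, and Vwf (1.19 against 1.16) and Tek (0.509 against 0.466) slightly higher. The part of these differences in the results below was not tested, and the groups are named by their labels. In bulk RNA, fewer cells of a type and less RNA per cell cannot be told apart. Fndc4 was not analysed here, and the group labels were therefore not checked against it.

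Of the 8 cytosolic J-protein genes of classes A and B, 7 were lower in the AAV9-hFNDC4 libraries and Dnajb5 did not pass. Dnaja1, the lowest, was at 0.342 of its AAV9-CTRL level. ER members split, with Dnajb9, Dnajb11, Dnajc3 and Dnajc25 lower and Dnajb12, Dnajb14, Dnajc10 and Dnajc16 higher. Mitochondrial members split too, with Dnajc19, Dnajc15 and Dnajc11 lower and Dnaja3 and Dnajc30 higher. Of the 38 members, 36 passed the filter on low counts and were tested. In the AAV9-hFNDC4 libraries 20 were lower, 7 were higher and 9 did not pass (edgeR quasi-likelihood test, Benjamini-Hochberg adjusted p under 0.05). That is 75.0% of the tested members, against 47.1% of all 14663 genes tested, of which 25.0% were lower and 22.1% higher. Among genes of at least 1 CPM in 3 libraries the share called was 52.0%. The median log2 fold change was -0.35 over the 36 members and 0.01 over all genes, and the groups did not overlap in 27 of the 36, against 56.6% of all genes. Of those 27, 19 were lower and 8 higher in AAV9-hFNDC4, against 29.5% and 27.1% of all genes. DESeq2, a second count test, called 16 members lower and 8 higher. Among the genes of the edgeR comparison it called 45.9%, with 24.3% lower and 21.6% higher. Library totals enter these values through TMM normalization, and a fold change is always AAV9-hFNDC4 over AAV9-CTRL.

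**Figure D1:**
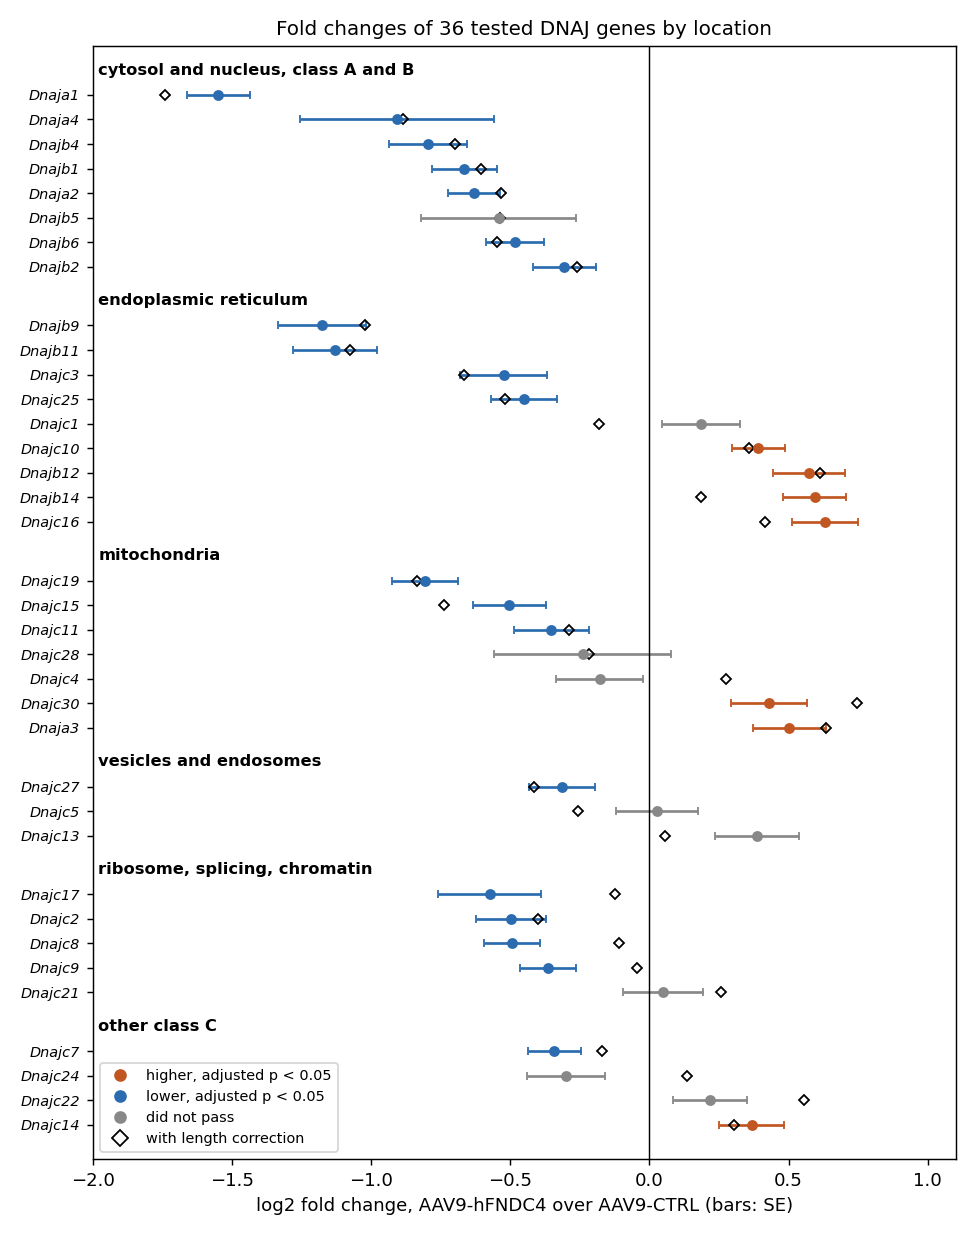
Log2 fold change (x axis, AAV9-hFNDC4 over AAV9-CTRL) of 36 tested DNAJ genes, grouped by where their proteins act. Filled points are edgeR estimates with SE bars, coloured by the call at an adjusted p of 0.05, and open diamonds are estimates after a correction for exon length. The tested cytosolic class A and B genes all lie left of 0, while ER and mitochondrial genes lie on both sides.

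Transcript length goes with the fold change in these libraries, and values with a correction for it are given beside the calls it ends. Over all genes with a known exon length, the median log2 fold change was -0.49 in the shortest 10% and 0.46 in the longest 10%. The 20 lower members had a median exon length of 3.22 kb (1.01 to 6.19 kb) and the 7 higher members one of 4.04 kb (1.66 to 9.48 kb). With a correction for length, 13 members were lower and 7 higher, against 21.1% and 22.5% of all genes in that fit, and 19 of the 27 calls kept their direction and threshold. The libraries of a group also differed: AAV9-hFNDC4 replicate 2 was the highest of its group in 24 of 36 members, and AAV9-CTRL replicate 2 the lowest of its group in 21. Without AAV9-hFNDC4 replicate 3 the number of lower members was 12, without AAV9-CTRL replicate 3 it was 13, and without AAV9-hFNDC4 replicate 2 or AAV9-CTRL replicate 2 it was 19.

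Of the 8 cytosolic and nuclear members of classes A and B, 7 were lower, 0 were higher and 1 did not pass, with a median log2 fold change of -0.65. With the length correction, with DESeq2 and with upper-quartile scaling 5 of the 8 were called lower, and the median was -0.58 with the length correction. Dnaja1 (chromosome 4, 40722150 to 40737149) encodes a class A partner of the constitutive HSP70 and stood at 100.5, 85.8 and 89.6 CPM in AAV9-hFNDC4 replicates 1 to 3, against 290.3, 237 and 279 CPM in AAV9-CTRL replicates 1 to 3. The highest AAV9-hFNDC4 library lay below the lowest AAV9-CTRL library by more than 100 CPM. Its log2 fold change was -1.55 (SE 0.11, adjusted p = 7.15e-06), the most negative of the 36, and -1.74 with the length correction. Dnaja1 shares 11.8% of its exon bases with other genes, among them Smu1 on the opposite strand, and the annotation holds a processed pseudogene, Dnaja1-ps. How strand and multiply matching reads were treated in counting is not stated in the sources used here, so reads of such overlaps cannot be assigned.

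Dnaja2 (chromosome 8, 85537633 to 85555344), another class A gene, stood at 138, 139 and 134 CPM in the AAV9-hFNDC4 libraries, against 210, 203 and 224 CPM in the AAV9-CTRL libraries. The 3 AAV9-hFNDC4 values lay within 5 CPM of each other, and the log2 fold change was -0.63 (SE 0.09, adjusted p = 0.000300). Dnajb1 (chromosome 8, 83608193 to 83612653), the classic heat-inducible HSP40, stood at 51.6, 62.6 and 53.0 CPM against 96.8, 85.2 and 83.1 CPM in the AAV9-CTRL libraries. Its groups did not overlap either, with a log2 fold change of -0.66 (SE 0.12, adjusted p = 0.000775). Dnajb4 (chromosome 3, 152178511 to 152210302), a close relative of Dnajb1, stood at 35.1, 36.4 and 34.0 CPM in the AAV9-hFNDC4 libraries, against 73.7, 49.9 and 59.3 CPM in the AAV9-CTRL libraries. The AAV9-CTRL libraries were spread more widely than the AAV9-hFNDC4 ones, and the log2 fold change was -0.79 (SE 0.14, adjusted p = 0.000809).

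Dnajb6, which keeps aggregation-prone proteins from clumping, was lower at 58.2, 67.1 and 58.8 CPM, against 84.5, 83.7 and 89.0 CPM in AAV9-CTRL, a log2 fold change of -0.48 (SE 0.10, adjusted p = 0.00289). Dnaja4 was called only at the margin (adjusted p = 0.04997), at 1.603, 0.831 and 1.17 CPM in the AAV9-hFNDC4 libraries against 2.63, 2.01 and 2.12 CPM in AAV9-CTRL. It shares 44.6% of its exon bases with Wdr61 on the opposite strand and lost the call with the length correction (adjusted p = 0.0583) and without AAV9-hFNDC4 replicate 2 or 3, or AAV9-CTRL replicate 1 or 3. Dnajb2, which carries ubiquitin-interacting motifs, was lower by a smaller amount (log2 fold change -0.31, adjusted p = 0.0455). Its call was lost with the length correction (adjusted p = 0.0727) and in each fit that left out a library other than AAV9-hFNDC4 replicate 2, with adjusted p up to 0.203 over all alternatives. Dnajb5 did not pass (2.91, 4.85 and 3.58 CPM against 6.31, 3.70 and 6.49 CPM in AAV9-CTRL, adjusted p = 0.132), and was called lower without AAV9-CTRL replicate 2 (log2 fold change -0.76, adjusted p = 0.0260, range 0.0260 to 0.358 over its alternatives).

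The summed level of these 8 genes was 430, 450 and 420 CPM in the AAV9-hFNDC4 libraries, against 820, 725 and 801 CPM in the AAV9-CTRL libraries. The sums of the 2 groups lay apart by more than the spread within either group. Summed class C levels differed less, at 1709 ± 124 CPM in AAV9-hFNDC4 and 1835 ± 74.3 CPM in AAV9-CTRL libraries (SD, n = 3 each), and these groups overlapped.

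**Figure D2:**
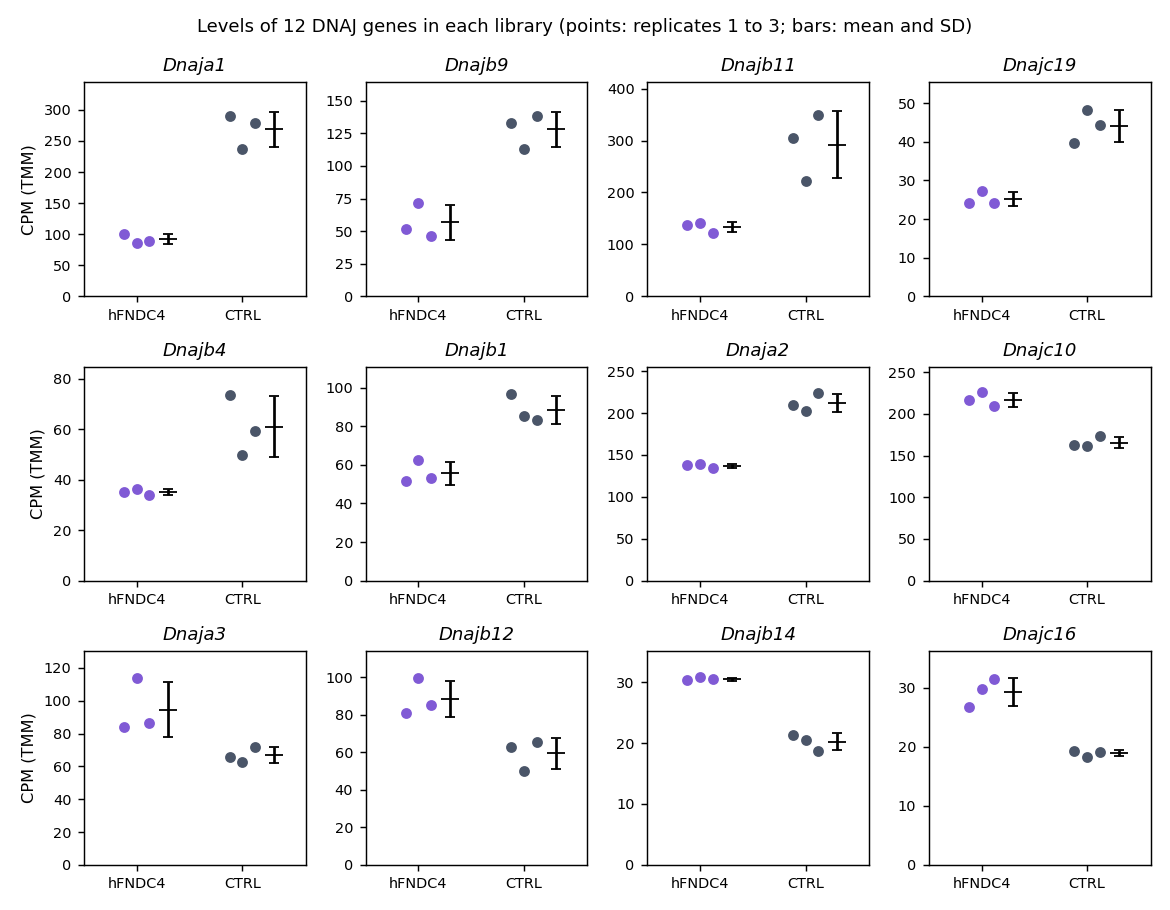
TMM-normalized CPM (y axis, from 0) of 12 DNAJ genes in each library, AAV9-hFNDC4 on the left and AAV9-CTRL on the right of each panel, ordered from the lowest to the highest fold change. Points are replicates 1 to 3, and bars give the mean and SD. No panel has overlapping groups: AAV9-hFNDC4 points are lower in the first 7 panels and higher in the last 5.

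HSF1 binds heat shock elements, arrays of the unit GAA and its reverse complement TTC, and promoter windows were searched for them because several cytosolic members are known HSF1 targets. RefSeq (GRCm38.p6) gave windows of 250 bases before a transcript start for 32 of the 38 members, 45 windows in all, and for all genes 32851 windows. Both strands were searched. The motif with 3 units (GAA, TTC and GAA, each 2 bases of any kind apart) occurred in 0.466% of all windows and in 2 of the 45, both of Dnajb6, and it contains the pair motifs GAANNTTC and TTCNNGAA. The pair GAANNTTC occurred in 6.69% of all windows and in 5 of the 45 (Dnaja1, Dnaja4, Dnajb6 and Dnajc27), and the pair TTCNNGAA in 7.17% of all windows and in 4 of the 45 (Dnajb4, Dnajb6 and Dnajc10). Of these 6 genes Dnajc10 was higher and the other 5 were lower, against 20 lower of all 36 tested members. The edgeR calls of Dnaja4 and Dnajc27 were marginal (adjusted p = 0.04997 and 0.0457) and each held in 5 of 14 alternative fits. Dnaja2, Dnajb1 and Dnajb2 were also lower, and their windows hold no match. A link between motif and direction was not tested. A match is a match of letters and not a measured site. The stretches of Dnaja1 and Dnajb6 printed below touch annotated exons. That of Dnajb4 lies inside the gene, before a second RefSeq start. Other RefSeq windows of Dnaja1 and Dnajb4 hold no match. The sites of Dnaja1, Dnajb4 and Dnajb6 follow, with 30 bases each 5′ to 3′ on the gene's strand and the motif in capitals. They lie at chr4:40722333-40722362 (plus strand), chr3:152193846-152193875 (minus strand) and chr5:29735844-29735873 (plus strand).
Dnaja1: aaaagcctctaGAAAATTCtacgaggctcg
Dnajb4: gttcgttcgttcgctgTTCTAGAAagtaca
Dnajb6: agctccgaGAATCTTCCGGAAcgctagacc

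Dnaja4 holds 2 pairs, whose first bases are 90 and 52 bases before a RefSeq start. Both pairs and that start lie inside the annotated gene, which begins at 54698873. The 145 bases before that start that lie outside annotated exons are shown whole, at chr9:54699414-54699558 on the plus strand, with the pairs in capitals.
Dnaja4: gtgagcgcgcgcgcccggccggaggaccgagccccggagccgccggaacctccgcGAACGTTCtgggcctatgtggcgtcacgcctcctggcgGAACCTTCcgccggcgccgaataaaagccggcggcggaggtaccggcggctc

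ER members fell on both sides, with 4 of 9 tested genes lower, 4 higher and Dnajc1 not passing. The genes with the most negative values encode partners of BiP (Hspa5), the HSP70 of the ER lumen. Dnajb9 (chromosome 12, 44205559 to 44210326), which directs misfolded proteins to degradation, stood at 51.9, 71.8 and 46.2 CPM in AAV9-hFNDC4 and at 133, 113 and 138 CPM in AAV9-CTRL libraries. Dnajb11 (chromosome 16, 22857845 to 22879634), a folding co-factor that is also secreted, stood at 138, 141 and 122 CPM against 304, 223 and 349 CPM in AAV9-CTRL libraries. In both genes each AAV9-hFNDC4 library lay below each AAV9-CTRL library. The log2 fold change was -1.18 for Dnajb9 (SE 0.16, adjusted p = 0.000154) and -1.13 for Dnajb11 (SE 0.15, adjusted p = 0.000148).

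Dnajc3, known as P58IPK, a lumenal co-chaperone first described as an inhibitor of the kinase PKR, stood at 80.1, 91.9 and 77.8 CPM in the AAV9-hFNDC4 libraries and at 126, 89.1 and 144 CPM in the AAV9-CTRL libraries. The groups overlapped, because AAV9-CTRL replicate 2 lay below AAV9-hFNDC4 replicate 2. Its log2 fold change was -0.52 (SE 0.16, adjusted p = 0.0170). It was -0.70 without AAV9-CTRL replicate 2 and lost its call without AAV9-hFNDC4 replicate 1 (adjusted p = 0.0544) or 3 (0.0646), or AAV9-CTRL replicate 1 (0.0691) or 3 (0.102), in a range from 0.000241 to 0.102. Dnajc25, a membrane member of the ER group, was lower by a smaller amount at 16.6, 18.0 and 18.7 CPM, against 23.8, 24.0 and 25.1 CPM in AAV9-CTRL libraries. Its log2 fold change was -0.45 (SE 0.12, adjusted p = 0.00855), with adjusted p = 0.0517 without AAV9-hFNDC4 replicate 1.

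Dnajc3 was the only member with the ER stress response element (CCAAT and CCACG with 9 bases of any kind between them), which the unfolded protein response factor ATF6 binds, in its window (1 of 45, against 0.113% of all windows, both strands searched). Its 250 bases before the start are shown, at chr14:118937682-118937931 on the plus strand, with the element in capitals, whose first base lies 105 bases before the RefSeq start.
Dnajc3: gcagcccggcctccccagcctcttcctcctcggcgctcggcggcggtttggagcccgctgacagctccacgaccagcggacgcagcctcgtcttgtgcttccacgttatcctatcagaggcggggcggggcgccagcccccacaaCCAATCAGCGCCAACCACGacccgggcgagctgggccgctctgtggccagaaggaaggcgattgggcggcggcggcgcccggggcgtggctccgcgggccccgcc

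The higher ER genes include membrane-anchored members. Dnajb12 (chromosome 10, 59879556 to 59899302), which acts with cytosolic HSP70 in degrading misfolded membrane proteins, stood at 81.1, 99.3 and 85.2 CPM in the AAV9-hFNDC4 libraries, against 63.0, 50.1 and 65.6 CPM in the AAV9-CTRL libraries. Every AAV9-hFNDC4 library was above every AAV9-CTRL library, and the log2 fold change was 0.57 (SE 0.13, adjusted p = 0.00370). Dnajb14 (chromosome 3, 137867675 to 137916557), its closest relative, stood at 30.3, 30.8 and 30.4 CPM against 21.4, 20.5 and 18.7 CPM in AAV9-CTRL, a log2 fold change of 0.59 (SE 0.11, adjusted p = 0.00135). Dnajb14 is a long gene with 9.48 kb of exon, and after correcting for length it no longer passed (log2 fold change 0.19, adjusted p = 0.184), while the corrected value of Dnajb12 was 0.61.

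Dnajc16 (chromosome 4, 141760189 to 141790931), an ER membrane protein, had the highest log2 fold change of the 36 members at 0.63 (SE 0.12, adjusted p = 0.00118), which was 0.42 with the length correction and passed there. It stood at 26.7, 29.8 and 31.4 CPM in AAV9-hFNDC4 libraries, against 19.3, 18.3 and 19.2 CPM in AAV9-CTRL libraries, so its groups did not overlap. Dnajc10 (chromosome 2, 80315466 to 80354043), a lumenal BiP partner that reduces disulfide bonds, stood at 216, 226 and 209 CPM against 162, 161 and 173 CPM in AAV9-CTRL. Its log2 fold change was 0.39 (SE 0.09, adjusted p = 0.00553), the opposite direction to the other lumenal partners Dnajb9, Dnajb11 and Dnajc3. Dnajc1 did not pass (log2 fold change 0.19, adjusted p = 0.300, and -0.18 with the length correction). The median of the 9 ER genes was 0.19 and turned to -0.18 with that correction.

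Mitochondrial members were lower in 3 of 7, higher in 2, and 2 did not pass. Dnajc19 (chromosome 3, 34056020 to 34081321), a subunit of the import motor at the inner membrane, stood at 24.2, 27.3 and 24.1 CPM in AAV9-hFNDC4 and at 39.7, 48.1 and 44.2 CPM in AAV9-CTRL libraries. The groups lay apart by more than 10 CPM, with a log2 fold change of -0.80 (SE 0.12, adjusted p = 0.000272). The annotation holds a processed pseudogene, Dnajc19-ps. Dnajc15, a relative of Dnajc19 that also binds the import machinery, stood at 20.8, 28.0 and 23.7 CPM against 33.8, 32.7 and 36.3 CPM in AAV9-CTRL, with a log2 fold change of -0.50 (SE 0.13, adjusted p = 0.00790).

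Dnajc11, linked to the organization of the inner membrane, was called at the margin (log2 fold change -0.35, adjusted p = 0.0476), with overlapping groups. It lost the call with RLE size factors (0.0505), with the length correction (0.102), and without AAV9-hFNDC4 replicate 1 or 3 or AAV9-CTRL replicate 1 or 3, in a range from 0.00731 to 0.184. Dnaja3 (chromosome 16, 4639989 to 4707695), the class A partner of mitochondrial HSP70, stood at 84.0, 114 and 86.2 CPM in AAV9-hFNDC4 libraries, against 65.6, 62.9 and 72.1 CPM in AAV9-CTRL libraries. AAV9-hFNDC4 replicate 2 was the highest, and the remaining 2 libraries of the group were still above every AAV9-CTRL library. Its log2 fold change was 0.50 (SE 0.13, adjusted p = 0.00827), and 0.35 without AAV9-hFNDC4 replicate 2 (adjusted p = 0.0274). Dnajc30, which has been linked to respiratory complex I, was higher at 19.8, 17.3 and 16.8 CPM against 12.5, 14.1 and 13.5 CPM in AAV9-CTRL. Its log2 fold change of 0.43 (adjusted p = 0.0213) was 0.74 with the length correction, and the call was lost without AAV9-hFNDC4 replicate 1 or AAV9-CTRL replicate 3 (up to 0.110). It shares 26.3% of its exon bases with Bud23 on the opposite strand. Dnajc4 and Dnajc28 did not pass (log2 fold changes -0.18 and -0.24, adjusted p = 0.372 and 0.565).

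Members that act at ribosomes, in splicing or on chromatin were lower in 4 of 5 tested genes and higher in 0. Dnajc2, a ribosome-bound partner of the HSP70 relative Hspa14, stood at 204, 243 and 209 CPM in the AAV9-hFNDC4 libraries, against 321, 258 and 345 CPM in the AAV9-CTRL libraries (log2 fold change -0.50, SE 0.13, adjusted p = 0.00706). Hspa14 itself was lower too, at 60.7 ± 2.17 CPM against 81.0 ± 2.39 CPM in AAV9-CTRL (SD, n = 3 each; log2 fold change -0.42, edgeR adjusted p = 0.00472), a call that ended with the length correction (-0.15, adjusted p = 0.246). Dnajc8, a splicing factor, had a log2 fold change of -0.49 (adjusted p = 0.00212), and -0.11 with the length correction, which ended its call (adjusted p = 0.399). Dnajc17, found with the spliceosome, stood at 6.06, 6.07 and 4.75 CPM against 8.36, 8.77 and 8.02 CPM in AAV9-CTRL libraries, a log2 fold change of -0.57 (SE 0.18, adjusted p = 0.0235). Dnajc9, a histone chaperone, had a log2 fold change of -0.37 (adjusted p = 0.0111). The calls of Dnajc17 and Dnajc9 were also lost with the length correction, at log2 fold changes of -0.13 and -0.04, so that 1 of the 5 remained. Dnajc17 lost its call without AAV9-hFNDC4 replicate 3 or AAV9-CTRL replicate 1, and Dnajc9 without AAV9-hFNDC4 replicate 3 or AAV9-CTRL replicate 3. The exon lengths of Dnajc8, Dnajc17 and Dnajc9 are 1.40, 1.01 and 1.63 kb. Dnajc17 shares 10.7% of its exon bases with Zfyve19 on the opposite strand. Dnajc21, needed to mature the large ribosomal subunit, did not pass (log2 fold change 0.05, adjusted p = 0.797).

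Of 3 tested vesicle and endosome members, 1 was lower, 0 were higher and 2 did not pass, against 47.1% of all genes called. Dnajc5, the cysteine string protein of secretory vesicles, stood at 244, 329 and 269 CPM in the AAV9-hFNDC4 libraries and at 248, 336 and 244 CPM in the AAV9-CTRL libraries, with overlapping groups (log2 fold change 0.03, SE 0.15, adjusted p = 0.897). In each group replicate 2 was the highest. Dnajc13, an endosomal protein that works with HSP70 in cargo sorting, stood at 177, 209 and 184 CPM against 181, 113 and 142 CPM in AAV9-CTRL. It missed the threshold (log2 fold change 0.39, SE 0.15, adjusted p = 0.0547) and was called higher without AAV9-CTRL replicate 1 (log2 fold change 0.60, adjusted p = 0.00527, range 0.00464 to 0.741 over its alternatives) and in 4 other alternatives. With the length correction its log2 fold change was 0.05. AAV9-CTRL replicate 1 lay above AAV9-hFNDC4 replicate 1, so the groups overlapped. Dnajc27, a Rab-like GTPase with a J domain, was lower (log2 fold change -0.31, adjusted p = 0.0457), a call that held in 5 of 14 alternative fits and was lost without each library other than AAV9-hFNDC4 replicate 2. Of the remaining class C genes, Dnajc7 was the most abundant per length and stood at 120, 131 and 124 CPM in AAV9-hFNDC4 libraries, against 160, 152 and 163 CPM in AAV9-CTRL libraries. Dnajc7, which also carries TPR repeats and works between HSP70 and HSP90, was lower at -0.34 (adjusted p = 0.0117). Dnajc14, an ER membrane protein that the list used here places outside the ER group and its counts, was higher at 0.37 (adjusted p = 0.0222). Both lost the call without AAV9-hFNDC4 replicate 1 or 3 or AAV9-CTRL replicate 3, and Dnajc7 also with the length correction (-0.17). They share 12.3% and 25.5% of their exon bases with Nkiras2 and Ormdl2 on the opposite strand. Dnajc22 and Dnajc24, the second a co-factor of diphthamide synthesis, did not pass (log2 fold changes 0.22 and -0.30), although the groups did not overlap in either. With the length correction Dnajc22 was called higher, at 0.56 (adjusted p = 0.00592).

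Per kilobase of exon, mean levels of the tested members ran from 0.339 (Dnaja4) to 74.9 (Dnajc2) CPM per kilobase in the AAV9-hFNDC4 libraries, and from 0.531 (Dnajc28) to 106 (Dnajc2) CPM per kilobase in the AAV9-CTRL libraries. In the AAV9-hFNDC4 libraries the most abundant gene per length was Dnajc2 at 74.9 ± 7.24 CPM per kilobase, followed by Dnajc8 at 61.9 ± 2.29, Dnajc10 at 53.7 ± 2.11 and Dnajc7 at 53.7 ± 2.50 CPM per kilobase (SD, n = 3). In the AAV9-CTRL libraries the order was Dnajc2 at 106 ± 15.4, Dnajb11 at 90.2 ± 19.8, Dnajc8 at 87.1 ± 6.58 and Dnaja2 at 72.6 ± 3.65 CPM per kilobase, where the first 3 lay within their spread. Dnajb11 stood at 41.3 ± 3.16 CPM per kilobase in the AAV9-hFNDC4 libraries. Dnaja1 and Dnajb9 were likewise lower per length, at 15.9 ± 1.32 and 23.0 ± 5.47 CPM per kilobase in AAV9-hFNDC4, against 46.6 ± 4.83 and 52.0 ± 5.49 CPM per kilobase in AAV9-CTRL libraries. The most abundant mitochondrial member in both groups was Dnaja3, at 35.8 ± 6.29 CPM per kilobase in AAV9-hFNDC4 and 25.2 ± 1.79 in AAV9-CTRL libraries. At the low end, Dnajb5, Dnaja4 and Dnajc28 stayed under 2 CPM per kilobase in both groups.

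**Figure D3:**
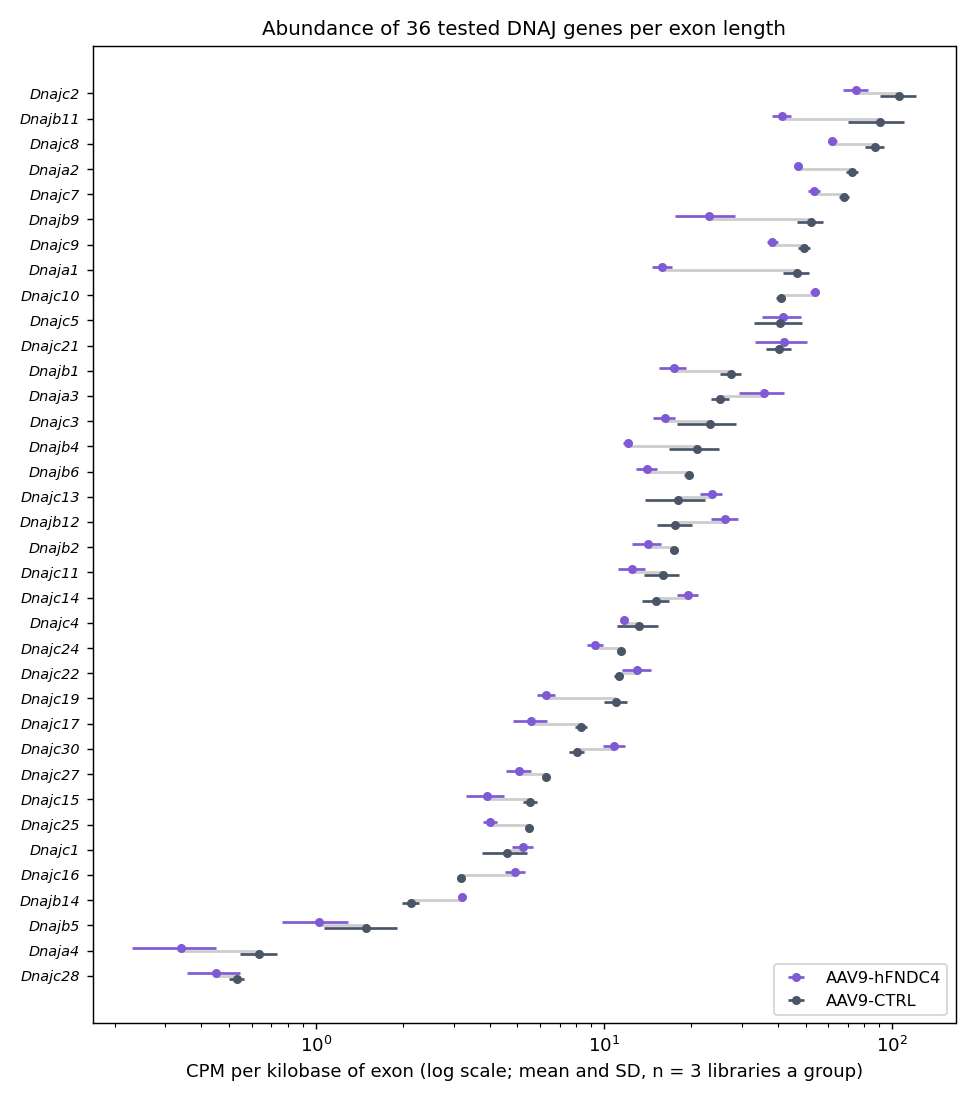
Mean CPM per kilobase of exon (x axis, log scale) of the 36 tested DNAJ genes in AAV9-hFNDC4 (purple) and AAV9-CTRL (dark grey) libraries, with SD bars over 3 libraries, sorted by the AAV9-CTRL level. The longest gaps between the groups belong to Dnaja1, Dnajb9 and Dnajb11, with AAV9-hFNDC4 on the lower side.

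J proteins act on an HSP70, so the other genes of this cycle were counted as well. Over all genes tested, 25.0% were lower and 22.1% higher. With the length correction these shares were 21.1% and 22.5%. Of 9 tested HSP70 family genes other than Hspa5 and Hspa9, 5 were lower and 1, Hspa12a, was higher. Among the lower ones, the heat-inducible Hspa1b had a log2 fold change of -9.51 (SE 0.26), with a split from its near-identical copy Hspa1a (-12.12, SE 0.58) that is uncertain. Hspa1a had 1, 3 and 0 counts in the AAV9-hFNDC4 libraries, against 8417, 3061 and 6416 in the AAV9-CTRL libraries. The size of its fitted value therefore rests on few reads. Hspa1l, a testis-enriched relative, had 0, 0 and 8 counts in the AAV9-hFNDC4 libraries, against 62, 65 and 73 counts in the AAV9-CTRL libraries. The fitted log2 fold change of Hspa1l was -4.73 (SE 0.81), and -9.12 without AAV9-hFNDC4 replicate 3, where the remaining libraries of that group are at 0 and the fitted value is no bound. The constitutive Hspa8 had one of -1.16 (SE 0.17). Hspa5, the BiP partner of the ER members, was lower with -0.90 (SE 0.20), and Hspa9, the mitochondrial HSP70, with -0.40 (SE 0.14). Nucleotide exchange factors were lower in 8 of 14 and higher in 3, with Bag3 at -2.10, Hsph1 at -2.87, Hspbp1 at -1.05 and Grpel1 at -0.69, while Sil1, Bag4 and Bag5 were higher at 0.38, 0.35 and 0.30. Of 12 adaptors and regulators, 11 were lower and 0 higher, with Hspb8 at -1.32, Ahsa1 at -1.16, Stip1 at -0.90 and Fkbp4 at -0.72 the smallest in p. With the length correction 7 of these 12 were lower and 1, Hsf2, was higher, while Stub1, Hsf1, Hsbp1 and Dedd2 lost their calls. The same correction left 4 of the 9 HSP70 family genes lower, ended the call of Hspa9, and left 8 exchange factors lower and 2 higher. Hsf1 had a log2 fold change of -0.31 (SE 0.11, adjusted p = 0.0406). Among these smaller values, Hsf1, Stub1 and Dedd2 each kept the call in 6 of 14 alternative fits. Hspa9 kept it in 8, Sil1 in 7, Bag4 in 8 and Bag5 in 4. Hspa12a lost its call without AAV9-hFNDC4 replicate 1 or AAV9-CTRL replicate 3. With 1 library left out, Stub1 stayed called only without AAV9-CTRL replicate 1, and Dedd2 only without AAV9-hFNDC4 replicate 1. Leaving out AAV9-hFNDC4 replicate 1 or 3, or AAV9-CTRL replicate 3, ended the calls of Hsf1, Hspa9, Sil1, Bag4 and Bag5. Sec63, Gak and Hscb, J-domain genes without the DNAJ name, did not pass, with log2 fold changes of 0.07, 0.16 and -0.03.

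Ratios of J-protein transcripts to those of their HSP70 differed between pairs in whether the groups overlapped. Values are CPM per kilobase of the J-protein gene per 100 CPM per kilobase of the HSP70 gene, and 9 such ratios were computed. Dnaja3 stood at 10.8, 11.2 and 10.9 per 100 of Hspa9 in AAV9-hFNDC4 libraries, against 5.57, 6.44 and 5.70 in AAV9-CTRL libraries. Dnajc10 stood at 7.77, 5.65 and 8.36 per 100 of Hspa5, against 2.83, 3.68 and 2.38 in AAV9-CTRL. Neither pair of groups overlapped, and both ratios were higher in AAV9-hFNDC4. Dnaja2 per 100 of Hspa8 (12.9, 21.8 and 13.9, against 9.97, 11.5 and 10.7 in AAV9-CTRL) and Dnajc3 per 100 of Hspa5 (2.26, 1.81 and 2.45, against 1.73, 1.598 and 1.56 in AAV9-CTRL) were also higher without overlap. Going the other way, Dnajb9 stood at 3.06, 2.95 and 3.03 per 100 of Hspa5, against 3.82, 4.23 and 3.13 in AAV9-CTRL, and Dnajc19 at 2.05, 1.77 and 2.02 per 100 of Hspa9, against 2.23, 3.26 and 2.31 in AAV9-CTRL. These groups did not overlap either, with AAV9-hFNDC4 lower. Dnajb11 stood at 6.17, 4.40 and 6.09 per 100 of Hspa5 against 6.64, 6.34 and 6.002 in AAV9-CTRL libraries, with overlapping groups. Dnaja1 per 100 of Hspa8 overlapped as well, at 4.76, 6.80 and 4.69 against 6.96, 6.83 and 6.76 in AAV9-CTRL. Dnajb1 per 100 of Hspa8 stood at 4.41, 8.96 and 4.997, against 4.18, 4.42 and 3.63 in AAV9-CTRL, again with overlap. With 3 libraries against 3, an exact 2-sided permutation test cannot go below p = 0.1, so none of these ratios could pass 0.05.

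**Figure D4:**
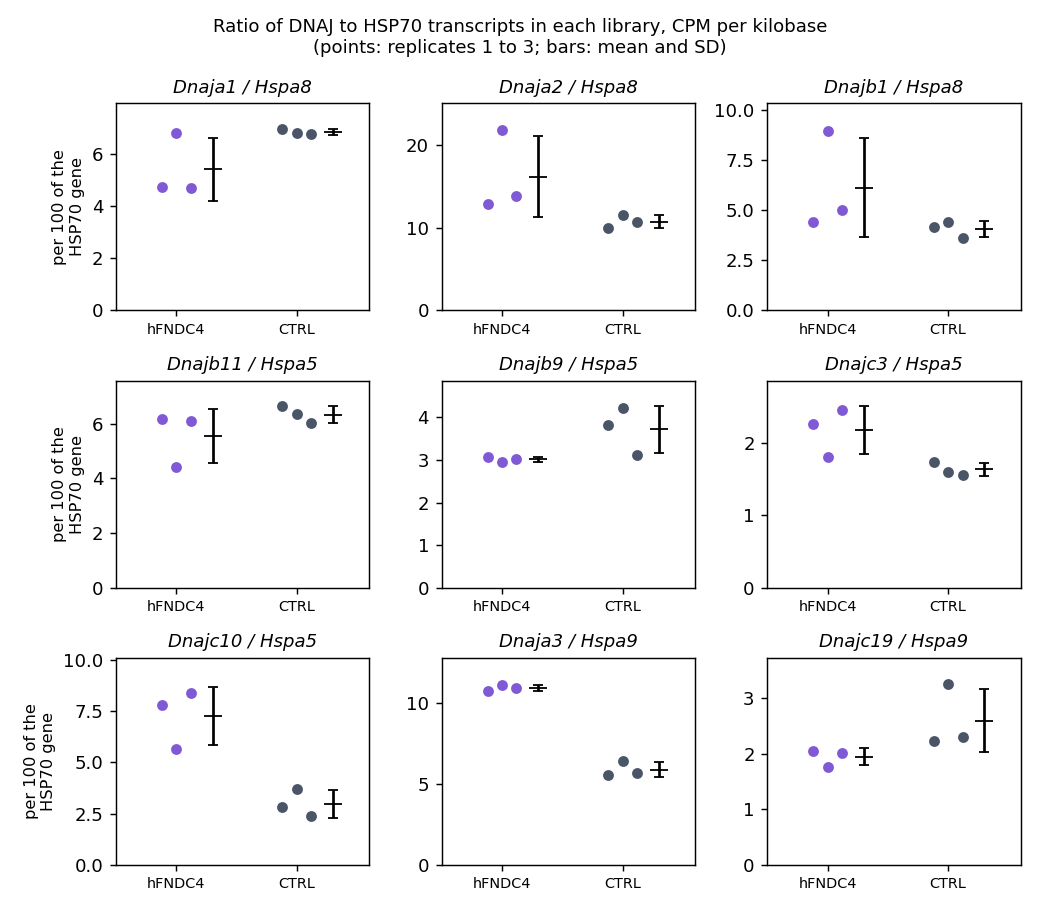
Ratio of each DNAJ transcript to its HSP70 transcript (y axis, from 0, both as CPM per kilobase, per 100 of the HSP70 gene) in each library, AAV9-hFNDC4 left and AAV9-CTRL right. Points are replicates 1 to 3, and bars give the mean and SD. The Dnaja3 to Hspa9 ratio lies at 10.8 to 11.2 in AAV9-hFNDC4 and at 5.57 to 6.44 in AAV9-CTRL libraries, while the Dnajb11 to Hspa5 ratios of the groups overlap.

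Members at the edge of detection were not tested. Dnajc6, a clathrin-uncoating factor of neurons, was the member just above the minimum, with 7, 4 and 1 counts in the AAV9-hFNDC4 libraries and 0 in each AAV9-CTRL library. It reached the minimum only through the group where it is high, and 7 of its 12 counts are from 1 library, so no fold is given. Dnajc18 had 4, 0 and 1 counts in the AAV9-hFNDC4 and 5, 12 and 4 counts in the AAV9-CTRL libraries. Just under the minimum, Dnajc12 had 0, 0 and 0 counts in the AAV9-hFNDC4 libraries, against 1, 0 and 6 in the AAV9-CTRL libraries. Dnajb13, of motile cilia, and Dnajb3 summed to 4 counts each. Dnajc5g and Dnajc5b, relatives of Dnajc5, summed to 2 and 1 counts, and Dnajb7 was listed at 0.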

How the data were processed

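Raw read counts per gene symbol, 1 column per library and without normalization, are what the authors deposited. The tools fastp, HISAT2, HTSeq, R 3.2.0 and DESeq2 and the builds GRCm38 and mm10 are named per the submitters' processing notes; their settings are not stated in the sources used here. Testing used edgeR 4.0.16 in R 4.3.3 (filterByExpr, TMM, robust quasi-likelihood F test) on all 27482 symbols, with Benjamini-Hochberg adjustment over the 14663 tested and a threshold of 0.05. The SE is the log2 fold change divided by the square root of F. CPM use TMM library sizes. Exon lengths and overlaps come from GENCODE vM21 basic (GRCm38). The length correction (loess, span 0.4, per library, as offsets) used the 91.2% of tested genes with a length. Values in every library are given for called members with an absolute log2 fold change of at least 0.5 and the most abundant per location; each partner list is named by its smallest p-values, and further genes given with values were chosen after these were seen. Members, lists and motifs were chosen with earlier results of these data known. Alternatives were RLE and upper-quartile scaling, other filters, DESeq2 1.42.0, limma-voom (limma 3.58.1), a replicate block and leaving out each library. The test was run on simulated counts first.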

Additional observations from a re-analysis of the deposited data

How the results depend on the processing

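The counts of 20 lower and 7 higher members were recomputed under 15 alternatives. The number of lower members was 13 with the length correction and 3 with an absolute log2 fold change over 1 (Dnaja1, Dnajb9 and Dnajb11), where 0 were higher. Leaving out 1 library gave 12 to 19 lower and 5 to 8 higher members. Over all genes, a change over 1 left 1053 lower and 993 higher. DESeq2 gave 16 lower and 8 higher members, upper-quartile scaling the same numbers, and limma-voom 20 and 8. The median log2 fold change stayed between -0.39 and -0.24 in the 14 alternative fits. The same 14 genes were called in the same direction in all 14 fits: Dnaja1, Dnaja2, Dnajb1, Dnajb4, Dnajb6, Dnajb9, Dnajb11, Dnajc2, Dnajc15 and Dnajc19 lower, and Dnaja3, Dnajb12, Dnajc10 and Dnajc16 higher. The replicate number as a block gave 14 lower and 5 higher members. Deviations of same-numbered libraries from their group means correlated at -0.09, -0.20 and -0.06, and no library correlated best with its own number. No called member changed direction. Among those that did not pass, signs turned with the length correction for Dnajc1 (-0.18), Dnajc24 (0.13), Dnajc4 (0.28) and Dnajc5 (-0.25), and when 1 library was left out for Dnajc21 (-0.13 to 0.14) and Dnajc5 (-0.10 to 0.19); the cause was not tested. Members under 10 counts allow no statement about change.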
